A study of Drosophila melanogaster with 3 samples.

Results

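Near-start intronic peaks are binding peaks of the Drosophila transcription factor Suppressor of Hairless, Su(H), whose summits fell inside an annotated gene, in no annotated exon, and more than 500 but at most 2000 bp from the nearest transcription start. They were chosen by position alone from the deposited list of reproducible peaks, with genes, exons and starts of all non-transposon genes taken from Ensembl. The rule found 498 of 3833 peaks, a share of 12.99% (95% Wilson interval 11.97 to 14.1). The other peaks were 2269 promoter peaks within 500 bp of a start, 580 distal intronic peaks over 2000 bp from any start, 95 peaks in exons and 391 peaks between genes.

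Chromatin was immunoprecipitated with an anti-GFP antibody from whole embryos aged 0 to 24 hours, males and females pooled, of a transgenic line that stably makes Su(H) with GFP at its C terminus. A characteristics entry of the same samples names the antibody Su(H) instead. All 3 biological replicates belong to this group, so the series holds no contrast of genotype, treatment or time. The labels do not give the state of the native Su(H) gene, and an embryo mixture of this age span averages all tissues. The control library was not analysed here.

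Su(H) is the DNA-binding protein of the Notch pathway. Without Notch signal it recruits corepressors through Hairless, and with signal it forms an activating complex with the intracellular domain of Notch and Mastermind. Introns of flies, first introns above all, carry many enhancers and alternative promoters, so peaks close to a start but outside it sit where both kinds of element are found.

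Sequences at member summits are shown first, because they place the Su(H) letters among the other recurrent letters of these introns. All were read from the Release 6 (dm6) genome of RefSeq, 5′ to 3′, and sites on the minus strand are given as that strand reads. The first 7 are among the strongest members with a Su(H) motif within 100 bp of the summit, and capitals mark the motif.
lap, chr3R:7188169-7188226, minus strand: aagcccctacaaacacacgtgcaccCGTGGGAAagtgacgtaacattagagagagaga
tna, chr3L:10856810-10856867, minus strand: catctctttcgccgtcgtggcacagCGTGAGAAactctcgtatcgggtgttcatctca
Baldspot, chr3L:16660655-16660712, minus strand: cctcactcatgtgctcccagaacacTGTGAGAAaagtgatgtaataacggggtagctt
Socs36E, chr2L:18151255-18151312, plus strand: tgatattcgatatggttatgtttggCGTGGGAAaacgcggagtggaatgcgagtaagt
Itgbn, chr2L:21053849-21053906, plus strand: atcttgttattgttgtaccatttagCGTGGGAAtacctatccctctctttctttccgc
milt, chr2L:7039314-7039371, plus strand: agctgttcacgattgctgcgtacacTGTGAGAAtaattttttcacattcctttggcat
CG18549, chr3R:12449756-12449813, minus strand: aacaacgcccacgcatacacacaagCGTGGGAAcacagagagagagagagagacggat

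The lone DREF motif among members, letters with a large difference in share from promoter peaks, lay in Stt3A and is in capitals here. In the lines for InR, the insulin receptor gene, and bmm, a lipase gene, capitals mark a GATA motif, shown because members had it more often than promoter peaks.
Stt3A, chrX:21053296-21053353, plus strand: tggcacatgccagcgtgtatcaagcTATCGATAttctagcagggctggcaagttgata
InR, chr3R:21590852-21590908, minus strand: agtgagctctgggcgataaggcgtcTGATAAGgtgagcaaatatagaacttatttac
bmm, chr3L:14785040-14785096, plus strand: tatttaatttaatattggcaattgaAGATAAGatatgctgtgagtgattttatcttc

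The whole windows of 100 bp to each side of the summit are printed for the strongest member, in ush, and the next one, in Lk6. None of the 15 motifs searched was present in the ush window, and the Lk6 window held a GAGA repeat, in capitals, 75 bp after the summit.
ush, chr2L:480986-481186, plus strand: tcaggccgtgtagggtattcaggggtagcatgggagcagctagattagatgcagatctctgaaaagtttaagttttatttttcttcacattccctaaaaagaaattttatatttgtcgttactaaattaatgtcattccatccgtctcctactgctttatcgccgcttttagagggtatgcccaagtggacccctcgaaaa
Lk6, chr3R:11760949-11761149, plus strand: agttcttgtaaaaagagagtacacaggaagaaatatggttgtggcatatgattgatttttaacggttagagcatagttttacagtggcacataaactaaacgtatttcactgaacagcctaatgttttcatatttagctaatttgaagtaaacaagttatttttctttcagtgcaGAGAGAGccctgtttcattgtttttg

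The strongest peak of the whole list was a near-start intronic peak. It lay in the first intron of ush, a zinc-finger cofactor of GATA factors (2L:480820-481317), 1398 bp upstream of the start of its opposite-strand neighbour cbt, itself a zinc-finger transcription factor. Signal values here are the authors' own score of each peak, without a stated unit, and read depth behind them is unknown. Scaling between the replicate lists is not stated either, so an SD over replicates holds any difference in scale. The median over all thresholded peaks was 55.8, 56.2 and 57.0 in the 3 lists. The ush peak had a signal of 825 in replicate 1, 936 in replicate 2 and 963 in replicate 3, or 908 ± 73.4 (SD, n = 3). It ranked 2, 1 and 1 in the 3 lists. A further peak at the start of cbt was weaker in every replicate, with 258, 286 and 246.

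Lk6, a kinase of the translation factor eIF4E, held the peak of rank 5 (3R:11760864-11761257), 970 bp upstream of an internal Lk6 start. Its signal was 620, 698 and 805 in replicates 1 to 3 (708 ± 92.9, SD, n = 3). CG11050 held rank 6 (2L:6612493-6612956) with 586, 613 and 609, the smallest relative spread among the 20 strongest members (603 ± 14.4, SD, n = 3). Within every replicate ush exceeded Lk6, and Lk6 exceeded CG11050. CG9663 followed at rank 15 with 426, 533 and 492, and CG32772 at rank 19 with 399, 479 and 516. The order of these peaks was turned in replicate 3.

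Next by rank came NFAT, a Rel-family transcription factor, with 359, 402 and 433 at rank 27. The peak of rank 30 lay in introns of both HmgZ and HmgD, which encode HMG-box chromatin proteins, and gave 382, 404 and 376. Adf1, a MADF-domain transcription factor, gave 313, 315 and 410 at rank 43. Trl, which encodes the GAGA factor, gave 327, 288 and 251 at rank 55. The remaining strong members were CG3726, CG31635, CG9837, norpA (a phospholipase C), Zw (glucose-6-phosphate dehydrogenase), Reph, mub (an RNA-binding protein), LPCAT (a phospholipid acyltransferase), schlank (ceramide synthase), wde (a partner of a histone H3 lysine methyltransferase) and sick, whose means ran from 300 in CG3726 down to 219 in sick.

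**Figure D1:**
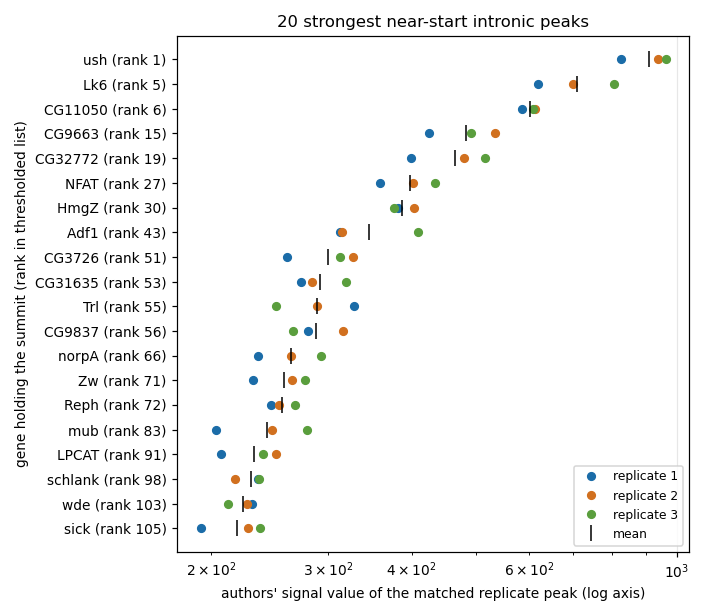
Signal of the matched peak in each replicate (points, log axis) and the mean (vertical tick) for the 20 strongest near-start intronic peaks, by host gene and rank. Values fall from a mean of 908 in ush to 219 in sick, and the points of neighbouring members overlap below CG11050.

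Members were found over the whole range of signal. They made up 18 of the 100 strongest peaks, 68 of the 500 strongest and 138 of the 1000 strongest, the last a share of 13.8% (95% Wilson interval 11.8 to 16.1). The median signal of members was 55.9, 57.1 and 57.4 in replicates 1 to 3. Promoter peaks had medians of 58.9, 56.0 and 58.3, and distal intronic peaks 51.5, 56.8 and 54.5. The members' median was below that of promoter peaks in replicates 1 and 3 and above it in replicate 2, a mean log2 ratio of -0.02 ± 0.05 (SD, n = 3; exact sign-flip permutation p = 0.75, two-sided). Against distal intronic peaks the members were higher in 3 of 3 replicates, by 0.07 ± 0.05 on the log2 scale (SD, n = 3; exact sign-flip permutation p = 0.25, two-sided, the smallest that 3 replicates allow). Neither difference can be called with 3 replicates.

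In all 3 replicate lists, 490 of the 498 members (98.4%) had a summit within 200 bp, beside 97.9% of all thresholded peaks. The list was itself built from peaks that agreed between replicates, and each replicate list holds 30000 peaks, so this share is a description. When each replicate list was limited to as many of its strongest peaks as the reproducible list holds, 298 members (59.8%) were found in all 3, beside 60.2% of all thresholded peaks. The 8 members lacking a match in some list lay in ERp60, CG5953, shn, nsl1, Asator, MESK2, Pura and CG42353. The median SD of a member's signal was 19.4% of its mean.

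At the extremes of spread, KCNQ gave 163, 164 and 164, and lncRNA:CR44206, Moe and CG15096 had similarly even values. The widest spread was in a weaker Adf1 member (rank 1811), with 39.5, 315 and 73.6. Its replicate 2 value belonged to the same replicate peak as the Adf1 member of rank 43, 200 bp away. Further members with a wide spread were shep (75.3, 13.1 and 36.9), mbc (36.9, 24.4 and 84.7, the last shared with a stronger member), cno (64.0, 14.4 and 46.9) and CG17121 (28.5, 59.2 and 18.997). A replicate peak was shared with another peak of the reproducible list for 16, 13 and 18 members in replicates 1 to 3, so values of neighbouring summits are not always separate measurements.

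Intronic sequence close to a start held more peaks than intronic sequence far from one. The genome has 11.4 Mb of intron between 500 and 2000 bp from a start, and it carried 43.6 members per Mb (exact 95% Poisson interval 39.8 to 47.6). Intron beyond 2000 bp carried 14.0 peaks per Mb (12.9 to 15.2), a ratio of 3.11 (exact 95% interval 2.75 to 3.51). Intron within 500 bp of a start carried 112 per Mb. These intervals cover counting error only, since all peaks come from the same 3 libraries.

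Density was higher upstream of the start than downstream of it up to 750 bp. Within 250 bp, intron upstream of the start held 206 peaks per Mb and intron downstream of it 49.0, a ratio of 4.19 (exact 95% interval 2.90 to 6.25). The ratio was 3.41 (2.41 to 4.91) from 250 to 500 bp and 1.49 (1.04 to 2.14) from 500 to 750 bp. From 750 to 1000 bp it was 0.886 (0.569 to 1.35). In each of the 5 steps from 750 to 2000 bp upstream density was the lower, 35.9 against 42.8 per Mb over these steps together, a ratio of 0.839 (0.667 to 1.05) that holds equality. Over the members' whole range the sides carried 43.6 per Mb downstream and 43.4 per Mb upstream, a ratio of 1.00 (0.834 to 1.21) in which the upstream excess up to 750 bp and the lower values beyond it offset each other. From 500 to 1250 bp, downstream density was between 47.3 and 50.3 per Mb, and it was 32.8 per Mb in the last 250 bp before the 2000 bp bound.

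**Figure D2:**
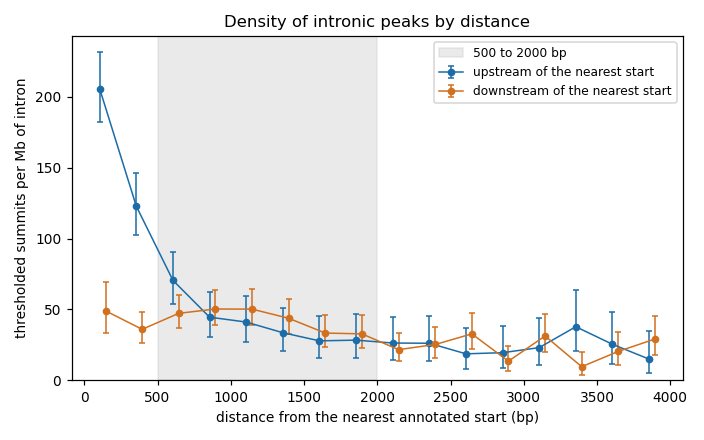
Summits of the reproducible list per Mb of intron (y axis) in 250 bp steps of distance from the nearest annotated start (x axis), upstream (blue) and downstream (orange), with exact 95% Poisson intervals as bars and the members' range shaded. Upstream density drops from 206 to 44.5 per Mb between the first and the fourth step, while downstream density starts at 49.0.

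The distance bounds cut through a continuous range. Just inside the lower bound lay members in lola (503 bp from the start; pooled signal 295), CG31523 (505 bp; pooled signal 314) and MESR3 (506 bp; pooled signal 163), and just outside it intronic peaks in CG5854 (500 bp; pooled signal 247), rno (497 bp; pooled signal 117) and kuk (495 bp; pooled signal 291). Just inside the upper bound lay Paip2 (1995 bp; pooled signal 112), mwh (1994 bp; pooled signal 127) and Shrm (1993 bp; pooled signal 159), and just outside it lncRNA:CR44320 (2006 bp; pooled signal 266), CG3764 (2019 bp; pooled signal 378) and hiw (2025 bp; pooled signal 394).

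Most members lay downstream of a start of their own host gene. This was so for 308 members (61.8%), while 126 (25.3%) lay upstream of an internal start of their host. Of near-start intron, 7.38 of 11.4 Mb lay downstream of the nearest start, with 43.6 members per Mb there and 43.4 upstream. Counting starts of any gene, 64.7% of members and 65.2% of distal intronic peaks lay downstream. The Newcombe interval of this difference (-6.23 to 5.17 points) holds equality. The nearest start was the host's own for 87.1% of members and 68.4% of distal intronic peaks, a difference of 18.7 points (13.8 to 23.4). Where several genes held a summit, one that owned the nearest start was taken as host. The classes were set by distance to that start, and the part of the rule in this contrast was not tested. The nearest start belonged to another gene on the opposite strand for 40 members and on the same strand for 24. It was the start of a protein-coding gene for 466 members, of a non-coding RNA for 26, of a tRNA for 3, of a snoRNA for 2 and of a pseudogene for 1.

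First introns were the usual place. The summit lay in the first intron of every host transcript that spans it for 300 members (60.2%), in a first intron of some transcripts for 117 and in later introns for 81. Of distal intronic peaks 34.8% lay in a first intron of every transcript, a difference of 25.4 percentage points (95% Newcombe interval 19.5 to 31.1). A first intron begins at a start, so the distance rule itself favours this position. Hosts with a lone annotated start held 24.1% of members and 31.6% of distal intronic peaks, a difference of -7.46 points (-12.7 to -2.08).

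A second peak at the nearest start accompanied 138 members (27.7%; 95% Wilson interval 23.96 to 31.8). The share for distal intronic peaks was 26.6%, a difference of 1.16 points (95% Newcombe interval -4.14 to 6.50). Of all 23581 annotated starts, 15.3% had a peak within 500 bp. Members downstream of a host start had such a companion in 33.8% of cases (28.7 to 39.2), and those upstream of a host start in 17.5% (11.8 to 25.02).

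Within these pairs neither peak was regularly the stronger. The member exceeded the peak at the start in 64 of 135 pairs in replicate 1, 71 of 136 in replicate 2 and 73 of 135 in replicate 3. In some pairs both summits matched the same replicate peak, as in CG14434 in replicates 2 and 3. Such equal values were counted as the member not being stronger. In Stt3A, which encodes a catalytic subunit of oligosaccharyltransferase, the member gave 108, 91.4 and 128 with a pooled signal of 325, beside 1047 for the peak at the start. In CG9663 the order was turned, with a pooled signal of 1459 for the member and 132 for the peak at the start. Members with a companion had median signals of 62.9, 63.1 and 69.3 in replicates 1 to 3, and those without one 53.4, 54.2 and 54.6, so the first group was higher in 3 of 3 replicates, a design that cannot give p below 0.25.

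**Figure D3:**
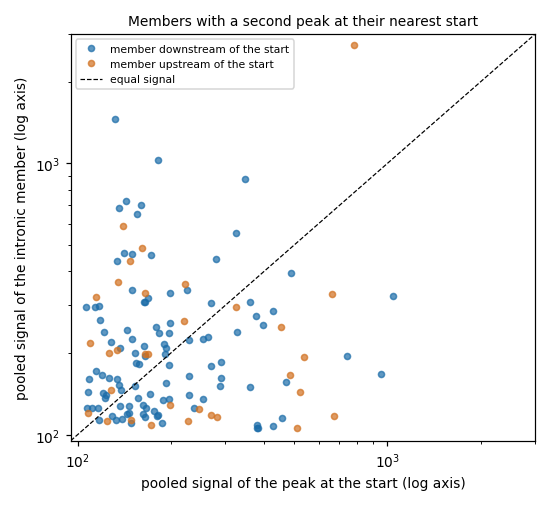
Pooled signal of each of the 138 members with a second peak (y axis, log) against that of the peak at its nearest start (x axis, log), coloured by the side of the start on which the member lies. The points scatter on both sides of the dashed line of equal signal, with 71 members above it.

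The X chromosome held 126 members, or 25.3%, against 16.0% of promoter peaks, a difference of 9.26 percentage points (95% Newcombe interval 5.31 to 13.5). Distal intronic peaks had the same tilt, with 25.9% on the X (difference -0.56 points, -5.75 to 4.68). Per Mb of near-start intron the X carried 57.2 members and the 4 long autosome arms 40.8, a ratio of 1.40 (exact 95% interval 1.14 to 1.72). The ratio for distal intronic peaks was 1.44 (1.18 to 1.73). Arm 3R held 120 members, 2R 93, 3L 80, 2L 78 and the fourth chromosome 1. Embryos of both sexes were pooled, the control library was not analysed here, and the part of X dosage in these shares was not tested.

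**Figure D4:**
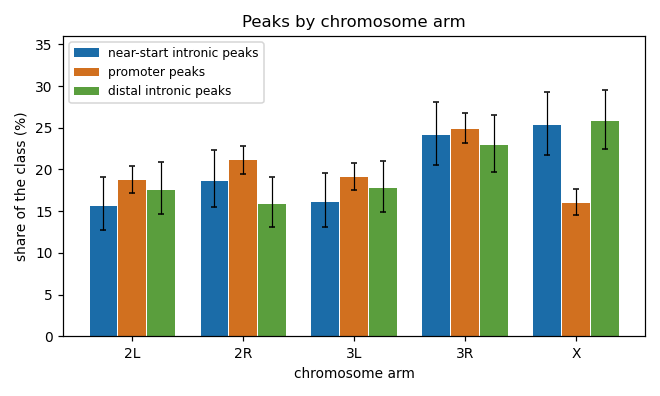
Share of near-start intronic, promoter and distal intronic peaks (y axis, percent of each class) on the 5 long chromosome arms (x axis), with 95% Wilson intervals as bars. On the X both intronic classes, at 25.3% and 25.9%, stand above promoter peaks at 16.0%.

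Su(H) motifs were rare at member summits. Searched on both strands as CGTGAGAA, CGTGGGAA, TGTGAGAA or TGTGGGAA, the motif lay within 100 bp of the summit of 18 members (3.61%; 95% Wilson interval 2.30 to 5.64), beside 3.57% of all thresholded peaks. Promoter peaks had it in 3.44% and distal intronic peaks in 3.28%, differences whose 95% Newcombe intervals (-1.38 to 2.31 and -1.88 to 2.68 points) hold 0. The members' flanks, centred 1000 bp to each side, had it in 2.21%, a difference of 1.41 points (-0.318 to 3.56). Of 114392 windows centred on every 100th base of near-start intron, 2.28% had it, a difference of 1.33 points (0.0111 to 3.36) that no longer cleared 0 with windows of 50 or 200 bp to each side (0.895 and 0.672 points) or among the 1000 strongest peaks (2.06 points). The same letters read backwards (AAGAGTGC, AAGAGTGT, AAGGGTGC or AAGGGTGT), a check with the same base composition, lay at 7 members (1.41%), beside 1.88% of all thresholded peaks.

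Where the Su(H) motif was present, its centre was a median of 38.5 bp from the summit, and 10 of the 18 lay within 50 bp. In lap, a clathrin adaptor gene, the distance was 1.5 bp, and the peak gave 186, 124 and 134 in replicates 1 to 3. The peak in tna gave 137, 135 and 166, and that in Baldspot, a fatty acid elongase gene, 114, 107 and 128. Socs36E, a feedback inhibitor of JAK-STAT signalling, gave 74.6, 80.1 and 89.4. Further members among the 12 strongest with the motif were in HmgZ, Itgbn (an integrin beta subunit), milt (a mitochondrial transport adaptor), CG18549, loco (an RGS-domain protein), shn and fru (a BTB zinc-finger factor). The HmgZ member (rank 685) gave 182, 172 and 75.5, and lay in the same peak interval as the summit of rank 30. None of the 20 strongest members had a Su(H) motif, beside 3.61% of all members, and the strongest with one, lap, ranked 264. Of the 249 members of higher signal 9 had it (3.61%), and of the 249 of lower signal 9 as well (3.61%).

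Core promoter motifs were rarer at members than at promoter peaks, a difference that the distance rule itself favours. Promoter peaks lie within 500 bp of a start by definition, and members lie farther away. The DREF motif TATCGATA, found at housekeeping promoters, lay at 1 member, in Stt3A (0.201%), beside 5.37% of all thresholded peaks and 8.81% of promoter peaks, a difference of -8.61 points (95% Newcombe interval -9.86 to -7.18). Near-start intron windows had it in 0.420% and distal intronic peaks in 0.517%. Motif 1, bound by M1BP, was at 0 of 498 members, which allows a share of up to 0.602% (3 counts; 0.765% by the Wilson interval), beside 2.03% of all thresholded peaks and 3.35% of promoter peaks (difference -3.35 points, -4.17 to -2.34). Among the 1000 strongest peaks that last difference did not clear 0 (-1.29 points). Distal intronic peaks had Motif 1 in 0.172%. The proneural E-box (ACAGCTG or ACAGGTG or GCAGCTG or GCAGGTG) is no core promoter motif but the binding letters of Achaete-Scute type factors. It lay at 54 members (10.8%), beside 12.9% of all thresholded peaks and 15.1% of promoter peaks (difference -4.23 points, -7.11 to -0.88). Distal intronic peaks had it in 9.31%, near-start intron windows in 9.59% and the members' flanks in 11.1%. The intervals of the members' differences from these sets hold 0. With windows of 50 bp to each side the difference from promoter peaks did not clear 0 (-2.31 points).

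GAGA repeats were the letters in which members differed most from distal intronic peaks. GAGAGAG, the type of repeat that GAGA factor binds, lay at 41 members (8.23%), beside 5.71% of all thresholded peaks. Distal intronic peaks had it in 3.45%, a difference of 4.78 points (95% Newcombe interval 2.00 to 7.78), which did not clear 0 among the 1000 strongest peaks (2.73 points). Promoter peaks had it in 6.17%, a difference of 2.06 points (-0.298 to 4.96) that holds 0. Near-start intron windows had it in 3.12%, a difference of 5.11 points (3.00 to 7.86). The members' flanks had it in 7.13%, a difference of 1.10 points (-1.65 to 4.20) that holds 0. Of these flanks, 45.2% lie within 500 bp of a start. Repeats of this kind stood beside Su(H) motifs in the lap and CG18549 sequences printed above.

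GATA motifs (AGATAAG or TGATAAG), the letters of GATA factors, lay at 46 members (9.24%), beside 6.34% of all thresholded peaks. Promoter peaks had them in 5.16% (difference 4.08 points, 1.63 to 7.06) and the members' flanks in 5.72% (difference 3.51 points, 0.749 to 6.65). The second difference did not clear 0 among the 1000 strongest peaks (4.71 points). Distal intronic peaks had 8.28%, and near-start intron windows 6.93%. CA repeats (CACACACA) lay at 37 members (7.43%), beside 4.75% of all thresholded peaks, 4.32% of promoter peaks and 4.90% of near-start intron windows. The members' flanks had them in 7.83% and distal intronic peaks in 5.52%. The intervals of the members' differences from these sets (-3.11 to 2.64 and -1.03 to 4.99 points) hold 0. The difference from promoter peaks, 3.11 points (0.918 to 5.86), did not clear 0 with windows of 50 bp to each side (0.289 points) or among the 1000 strongest peaks (0.729 points). Base composition moved with class: median GC of the summit window was 37.3% for members, 36.8% for distal intronic peaks, 39.8% for promoter peaks and 39.8% for near-start intron windows, and its part in the motif shares was not tested.

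Differences from near-start intron windows held 0 for the Runx, Mef2, AP-1, Mad, Zelda and Grainyhead motifs. The Runx motif (TGCGGTC or TGCGGTT or TGTGGTC or TGTGGTT) was at 37 members (7.43%), beside 7.04% of all thresholded peaks and 8.07% of near-start intron windows. The Mef2 motif was at 46 (9.24%), beside 7.75% and 8.14%. The AP-1 motif (TGACTCA or TGAGTCA) was at 11 (2.21%), beside 1.93% and 2.40%. The Mad motif (GCCGNCGC) was at 9 (1.81%), beside 1.70% and 1.53%. The Zelda motif (CAGGTAG) was at 5 (1.00%), beside 1.02% and 0.989%, and the Grainyhead motif (AACCGGTT) at 1 (0.201%), beside 0.235% and 0.357%. The Tinman motif (TCAAGTGG or TTAAGTGG) was at 3 (0.602%), beside 1.12% of all thresholded peaks and 2.09% of near-start intron windows, a difference from the latter of -1.48 points (95% Newcombe interval -1.89 to -0.327).

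**Figure D5:**
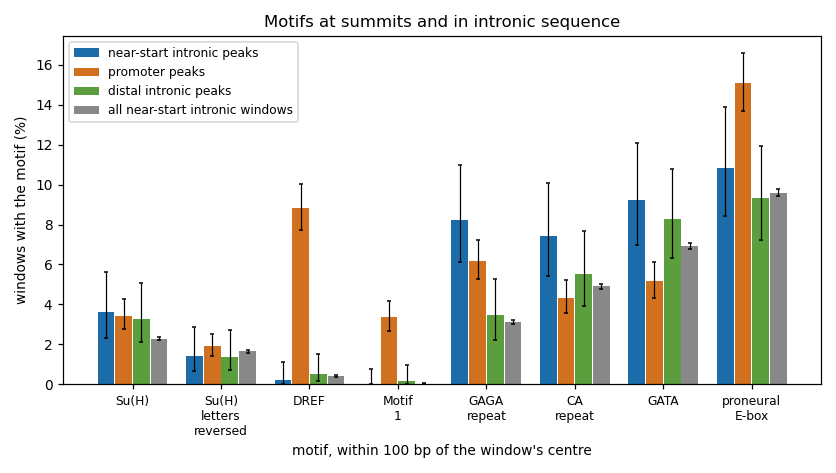
Share of 201 bp windows that hold each motif (y axis, percent), for summits of near-start intronic, promoter and distal intronic peaks and for windows on every 100th base of near-start intron, with 95% Wilson intervals as bars. DREF and Motif 1 are high in promoter peaks alone, while Su(H) shares of the 3 peak classes lie between 3.28% and 3.61%.

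The members were hosted by 447 genes, among them 437 protein-coding genes, or 3.13% of the 13945 annotated. Hosts were long genes, with a median length of 14904 bp against 2166 bp for all protein-coding genes, and 72.3% of them had at least 2 annotated starts against 26.5%. The rule asks for intron more than 500 bp from every start, so it favours long genes itself. Start counts were not compared at equal gene length. The host share rose with gene length, from 1 of 6520 genes up to 2000 bp to 17.3% of genes over 50000 bp. Of 245 annotated genes on 21 lists of pathways and cell types, 34 (13.9%) were hosts. Among list genes of 5000 to 20000 bp, 14 of 72 were hosts (19.4%), beside 8.71% of all protein-coding genes of that length. Over 20000 bp, 19 of 74 list genes were hosts (25.7%), beside 17.1%. The lists were chosen with earlier results of these data known, so these contrasts are a description and no independent result.

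On the 5 lists of Notch pathway genes and targets, 3 of 55 genes were hosts (5.45%; 95% Wilson interval 1.87 to 14.9), beside the 3.13% of all protein-coding genes, an interval that holds that share. None of the 6 annotated genes on the receptor and ligand list and none of the 15 Bearded and E(spl) genes, the classic direct targets of Su(H), held a member, and the latter have a median length of 957 bp. Of all protein-coding genes up to 2000 bp, 1 of 6520 was a host, so the rule leaves genes that short little room for a member. The count covers near-start intronic peaks only. The ubiquitin ligase gene neur, which promotes endocytosis of Notch ligands, was the host among 12 genes of Notch cleavage and endocytosis, with a signal of 34.5, 69.7 and 59.5. CtBP, the corepressor that Hairless brings to Su(H), was the host among 7 cofactor genes. Its stronger member gave 98.5, 67.3 and 93.2 and its weaker one 73.8, 21.8 and 43.1, so the first was higher in 3 of 3 replicates. The host among 16 known Notch targets outside E(spl) was edl, an antagonist of ETS-domain factors, with 61.1, 51.6 and 33.0.

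Hosts of other signalling pathways are given beside the median gene length of their list, since the host share rises with length. Of all protein-coding genes, 8.71% of those of 5000 to 20000 bp and 17.1% of those over 20000 bp were hosts. Each list holds genes of several lengths, so its median gives a rough background only. In the EGFR and Ras list, of median length 22271 bp, 5 of 15 genes were hosts, drk with 7620 bp among them. The hosts were S (Star), which traffics EGFR ligands (139, 157 and 171), the adaptor drk (103, 78.3 and 112) and the kinase Raf. The ETS-domain repressor aop (89.3, 46.6 and 41.9) and the receptor Egfr (40.3, 25.6 and 42.5) were hosts as well. Star exceeded drk in 3 of 3 replicates. The start nearest to the drk member was that of mars. Raf held a member of rank 572, nearest to the start of lncRNA:CR33218, with 80.8, 116 and 114. The Raf member of rank 1169 matched a replicate peak lying between it and a stronger peak 200 bp away. The replicate values of that member are thus not its own alone. In the ecdysone list, which has the longest genes by median of the lists (55679 bp), 4 of 12 were hosts. They were the receptor gene EcR (94.1, 101 and 93.4), the early response gene br (66.1, 90.9 and 94.9) and the nuclear receptor genes Hr4 and Eip78C. The nearest start was that of another gene for EcR (tRNA:Asn-GTT-1-1), br (Mur2B) and the Hr4 member of rank 1810 (CR46447). In the BMP list, of median length 5502 bp, 3 of 12 were hosts: Mad, the pathway's transducer (139, 190 and 163), the zinc-finger cofactor shn with 5 members, and the inhibitory Smad gene Dad (39.2, 41.2 and 32.5).

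In the JAK-STAT list, of median length 7364 bp, 2 of 7 genes were hosts, Socs36E and the transcription factor gene Stat92E (42.1, 49.5 and 44.9). The insulin and TOR list, of median length 6102 bp, had InR, the insulin receptor (126, 159 and 105), and Lk6 among 12 genes. The Wnt list, of median length 21030 bp, had arr, a co-receptor (20.2, 55.7 and 76.0), and sgg, the GSK3 kinase (58.7, 60.9 and 81.9), among 12. The Hedgehog list, of median length 5777.5 bp, had the receptor ptc (69.7, 63.8 and 73.3) among 8. The start nearest to the ptc member was that of lncRNA:CR44281. Of 12 Hippo pathway genes, 17 segmentation genes, 8 Hox genes, 12 mesoderm and muscle regulators and 11 cell cycle genes, none was a host. Their median lengths, in this order, were 10399.5, 2680, 30563, 5164 and 3975 bp. Of all protein-coding genes, 0.468% up to 5000 bp, 8.71% of 5000 to 20000 bp and 17.1% over 20000 bp were hosts. Whether a count of 0 in such small lists differs from these shares was not tested.

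The chromatin regulators had a median length of 7560 bp but differed in length, with lola at 61398 bp. Of all protein-coding genes, 8.71% of those of 5000 to 20000 bp and 17.1% of those over 20000 bp were hosts. Of the 19 chromatin regulators, 5 were hosts. They were Trl, the Polycomb gene ph-p (102, 92.2 and 105), lola (96.6, 122 and 105, where the replicate 2 value is also that of the stronger peak at its start), osa of the Brahma complex (means of 51.6 and 48.0 over replicates for its 2 members, which share replicate peaks), and psq, whose protein binds GAGA repeats (43.0, 40.9 and 37.6 for its stronger member). Among 16 cytoskeleton and adhesion genes, of median length 10320 bp, the hosts were tsr, the cofilin gene (124, 135 and 167), rhea, the talin gene (83.5, 62.9 and 45.9), and Moe, the moesin gene. The neuronal and glial list, of median length 9600.5 bp, had elav, an RNA-binding protein of neurons (92.5, 125 and 169), and Fas3, an adhesion molecule (19.6, 48.2 and 48.9), among 16 genes. The start nearest to the Fas3 member was that of CG34171. The hemocyte and blood list, of median length 13948 bp, had ush and the receptor kinase gene Pvr (49.97, 25.5 and 37.98) among 11. Embryos were whole, so these peaks cannot be placed in a cell type.

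Members gathered in some genes. At least 3 lay in each of 15 hosts, led by CG1677 with 6 over 45540 bp, which also lie inside lncRNA:CR44357 and so give that gene the same 6. The gene shn had 5, 4 of them next to each other at ranks 2120, 2137, 2161 and 2473, with signals from 30.8 to 74.3 where matched. CHES-1-like, HmgZ, NFAT and Tlk had 4 each, and CG10543, CG9837, Diap1 (an inhibitor of apoptosis), HmgD, Shrm, Tpr2, Trl and tou had 3 each. Joining members within 500 bp of each other left 480 separate regions. For 230 members (46.2%) another peak of the list lay within 2000 bp.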

How the data were processed

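The 3 replicate lists, the list pooled over replicates and the list thresholded by irreproducible discovery rate were used as the authors deposited them on dm6, one peak a line. Per the deposited file listing, each was called against a control. Aligner, peak caller and cut-off were not given in the sources used here. Each peak's signal value was used as the authors deposited it and ranked within a list. Scaling between lists was not stated, so means and SDs over replicates take the values as they are. The deposited −log10 q column is capped and was not used for ranking.

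Summits were classed with Ensembl release 115 (BDGP6.54, the dm6 sequence). A replicate peak was matched when its summit lay within 200 bp, taking the strongest. Python 3.11.15, pandas 2.3.3, numpy 2.4.6 and scipy 1.17.1 were used. Shares have Wilson intervals, their differences Newcombe intervals and densities exact Poisson intervals, all at 95%, covering counting error only. The classing, motif search and matching were tested on simulated data. Of the listed gene symbols, 2 were updated through RefSeq synonyms.

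Members, motifs and gene lists were chosen with earlier results of these data known. Named are the 20 strongest members, hosts on the lists (by rule up to 4 members a list), the 12 strongest with a Su(H) motif, 3 at each side of a distance bound, 5 of smallest and 5 of largest spread, and genes with 3 or more members. Genes named for further reasons (members missing from a replicate, Stt3A, bmm, further list hosts) were picked after their values were seen. Alternatives were other distances, positions, starts, windows, matches and lists, and leaving out each replicate. One member that the rule names is not reported here.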

Additional observations from a re-analysis of the deposited data

How the results depend on the processing

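The number of members ranged from 396 to 622 under other bounds, other starts, peak midpoints, exon-free peaks, joining and transposon exons, and was 138 among the 1000 strongest peaks. Leaving out each replicate in turn, the mean log2 ratio of median signal ranged from -0.0505 to 0.00125 against promoter peaks, so its sign depends on replicate 1, and from 0.04 to 0.10 against distal intronic peaks. The share of members found in all 3 replicates was 87.8% for summits within 100 bp, 99.6% for overlap by 1 bp and 59.8% within the strongest peaks of each list. A second peak at the nearest start accompanied 70.1% of members by the pooled list and 20.5% within 250 bp. The pooled list holds 30000 entries, peaks and background before thresholding, with a median signal of 45.2 against 160 in the thresholded list. The share by that list was not computed for distal intronic peaks or for all starts. The Su(H) difference from distal intronic peaks turned to -0.0609 points with windows of 50 bp and -0.986 with 200 bp to each side, and that from promoter peaks to -0.817 with 200 bp. The Su(H) difference from flanks cleared 0 among the 1000 strongest peaks (3.62 points) and was 0 with 200 bp. Differences that no longer cleared 0 were Su(H) against near-start intron windows (0.895 with 50 bp, 0.672 with 200 bp, 2.06 among the 1000 strongest), Motif 1 (-1.29), GAGA against distal intronic peaks (2.73) and GATA against flanks (4.71) among the 1000 strongest, CA repeats against promoter peaks (0.289 with 50 bp, 0.729 among the 1000 strongest) and the E-box against promoter peaks (-2.31 with 50 bp). The cause of these shifts was not tested, beyond the fewer peaks among the 1000 strongest. The density ratio, the X share and the first intron difference kept their direction and stayed clear of equality under the 5 alternatives chosen after seeing the data. No paired analysis was possible because all samples belong to 1 group, with no second group to pair them to. The peak classes were compared within each replicate.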

Other observations

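The peaks at the starts next to members were set beside the other promoter peaks in their letters. Of 127 such peaks, 6.30% had a DREF motif (95% Wilson interval 3.23 to 11.9), beside 8.96% of the other 2142 promoter peaks. A GAGA repeat lay at 10.2% of them (6.08 to 16.7), beside 5.93%, which is below that interval, and a Su(H) motif at 4.72% (2.18 to 9.92), beside 3.36%.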
